A study of Mus musculus with 14 samples.

Results

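A group of mouse genes had transcripts in 2-cell embryos made by somatic cell nuclear transfer (SCNT) although their mean levels were low (under 1 FPKM) both in cumulus cells, the source of the transferred nuclei, and in embryos made by in vitro fertilisation (IVF). They were chosen by their measured levels, in FPKM (read counts scaled by transcript length and library size). The mean had to be at least 3 FPKM in SCNT 2-cell embryos and under 1 FPKM in each of IVF 1-cell embryos, IVF 2-cell embryos and cumulus cells. Genes of the X and Y chromosomes, short RNAs and several families and genes (among them collagens, histones, interferon response genes and glutathione transferases) were left out by symbol. This gave 91 of 23234 gene symbols. Low levels in cumulus cells and IVF embryos and higher levels in SCNT 2-cell embryos are therefore the choice itself and not a result, and no test is given on those groups.

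RNA-seq covered 14 libraries in 7 groups of 2. Cumulus cells came from superovulated adult females. Their strain label reads (C57BL/6J x CAST/EiJ) F1 while the protocol names BDF1 females, and nothing in the labels settles this. IVF 1-cell embryos (pools of 32 and 31) and IVF 2-cell embryos (25 and 25) came from C57BL/6J oocytes and CAST/EiJ sperm. SCNT 1-cell embryos (36 and 36) and SCNT 2-cell embryos (40 and 40) joined F1 donor nuclei with B6D2F1 recipient oocytes, so strain background differed between IVF and SCNT embryos. Kdm4d embryos (25 and 25) and mutant Kdm4d embryos (25 and 25) were SCNT 2-cell embryos of that same cross. They overexpressed Kdm4d, which removes methyl groups from lysine 9 of histone H3, or a mutant of it. The labels name neither the mutation nor how the proteins were overexpressed. They also do not say that the libraries of a group came from separate experiments, so p-values measure only the spread between these libraries.

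Fertilised mouse embryos begin their major wave of transcription at the 2-cell stage, and in SCNT embryos the donor nucleus has to change from a somatic programme to that of the embryo. Methylation of histone H3 at lysine 9 marks silent chromatin, and Kdm4 enzymes remove it. Some genes of the group are best known from differentiated tissues, and encode hormones, digestive enzymes, or proteins of muscle, lens, cilia or sperm. Whether such genes are more frequent in the group than among all genes was not tested.

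Kdm4d itself checked the labels. It had 8879 and 2255 FPKM in the Kdm4d libraries, 723 and 283 FPKM in the mutant libraries, and at most 0.759 FPKM in any other library. Relative to the deepest library at 1, depth estimated from low values was 0.529 and 0.418 in the Kdm4d libraries, 0.467 and 0.514 in the mutant libraries and 0.824 and 0.871 in the SCNT 2-cell libraries, so low values rest on fewer reads in the first 2 groups. FPKM summed to between 208781 and 350382 per library, lowest in SCNT 2-cell embryos. Spearman's rho across genes between replicates ran from 0.932 in mutant Kdm4d to 0.988 in IVF 1-cell embryos. The 24 cumulus and granulosa markers summed to 28490.0000 and 22260.0000 FPKM in the cumulus libraries.

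Regulatory sequence is shown for 5 genes because they behaved differently in the Kdm4d groups. Aqp3, Elovl4, 1600029D21Rik (now named Plet1) and Ambp were lower in Kdm4d than in mutant embryos, and Gpha2 was higher. Each line holds the RefSeq promoter of 300 bases around the gene's start on build GRCm38.p6, read 5′ to 3′ on the gene's strand, with CpG dinucleotides in capitals.
Aqp3, chr4:41098134-41098433, minus strand: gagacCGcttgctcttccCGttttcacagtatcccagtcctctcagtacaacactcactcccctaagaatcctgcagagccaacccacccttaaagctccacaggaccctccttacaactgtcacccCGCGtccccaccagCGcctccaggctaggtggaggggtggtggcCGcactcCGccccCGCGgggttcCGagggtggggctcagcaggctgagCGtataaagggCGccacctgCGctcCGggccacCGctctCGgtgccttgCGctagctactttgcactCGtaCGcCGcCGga
Elovl4, chr9:83806256-83806555, minus strand: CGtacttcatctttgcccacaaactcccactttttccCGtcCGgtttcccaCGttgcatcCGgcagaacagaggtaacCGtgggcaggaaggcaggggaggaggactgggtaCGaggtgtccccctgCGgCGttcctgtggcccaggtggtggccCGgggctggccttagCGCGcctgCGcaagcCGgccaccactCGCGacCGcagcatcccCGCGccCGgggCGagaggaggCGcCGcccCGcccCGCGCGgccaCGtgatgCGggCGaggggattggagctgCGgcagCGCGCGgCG
1600029D21Rik (Plet1), chr9:50494275-50494574, plus strand: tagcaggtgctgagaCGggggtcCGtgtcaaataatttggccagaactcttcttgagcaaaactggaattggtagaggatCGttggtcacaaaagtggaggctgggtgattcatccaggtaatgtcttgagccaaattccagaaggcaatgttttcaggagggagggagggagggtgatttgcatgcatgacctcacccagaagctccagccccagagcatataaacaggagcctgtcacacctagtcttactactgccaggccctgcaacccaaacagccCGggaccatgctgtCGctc
Ambp, chr4:63154123-63154422, minus strand: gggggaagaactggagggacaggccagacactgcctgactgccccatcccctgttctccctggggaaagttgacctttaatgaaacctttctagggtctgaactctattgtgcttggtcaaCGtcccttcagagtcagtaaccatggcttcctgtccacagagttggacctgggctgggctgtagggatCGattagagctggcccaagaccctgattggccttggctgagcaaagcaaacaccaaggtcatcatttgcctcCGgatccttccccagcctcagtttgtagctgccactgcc
Gpha2, chr19:6226151-6226450, plus strand: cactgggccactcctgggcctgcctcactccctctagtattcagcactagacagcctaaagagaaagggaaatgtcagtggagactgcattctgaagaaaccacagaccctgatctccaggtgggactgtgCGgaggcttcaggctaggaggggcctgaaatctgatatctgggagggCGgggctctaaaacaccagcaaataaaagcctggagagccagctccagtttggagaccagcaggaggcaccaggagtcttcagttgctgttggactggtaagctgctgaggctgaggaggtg

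The 4 promoters of genes that were lower in Kdm4d embryos ranged from rich to poor in CpG. The Elovl4 promoter held 35 CpG dinucleotides, that of Aqp3 21, that of 1600029D21Rik 5 and that of Ambp 3. The Gpha2 promoter held 2. Over all 32851 RefSeq promoters the median was 7, with quartiles of 3 and 20. A promoter was found for 71 of the 91 genes (78%), 11 of them through an older symbol, which is too few for a statement about the promoters of the whole group.

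The genes of the group were present at modest levels. In SCNT 2-cell embryos their means ran from 3.01 to 18.6 FPKM with a median of 4.25; 4 reached 10 FPKM and 65 lay under 5 FPKM. The SCNT 2-cell libraries were within 2-fold of each other for 79 of the 91. Crygs, AI427809, Asphd2 and Muc1 were just inside the limit of 3 FPKM, with means from 3.01 to 3.04. Tmem130, Rec8, Zfp941 and Entpd3 were just outside it, with means from 2.92 to 2.94 FPKM. Applied to the first library of each group alone, the rule gave 98 genes, of which 65 also reached 3 FPKM in the second SCNT 2-cell library. Applied to the second alone it gave 88, of which 64 reached 3 FPKM in the first. The 91 genes lay on 19 chromosomes, with 12 on chromosome 11, 11 on chromosome 4 and 10 on chromosome 9, and none had another within 3 places in gene order.

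Reads could not always be assigned to 1 gene. Of 89 genes found in GENCODE transcripts, 63 shared none of their 50-base stretches with another gene and 9 shared over 15%. Those 9 were Depdc1a (66.9%), Cd247 (62%), Arl9 (38.8%), Entpd2 (32.8%), Bhmt (31%), Cela2a (24.8%), Cela3b (21%), T2 (19%) and Cbr2 (16.2%), and their values are uncertain throughout. The loci of 10 genes overlap another gene of the table. Among these, Atp6v1c2 overlaps Pdia6, which had 10.2 FPKM in SCNT 2-cell embryos, and Pmel overlaps Dgka, which had 5.68 FPKM. Signal in these pairs may not be fully separated.

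**Figure D1:**
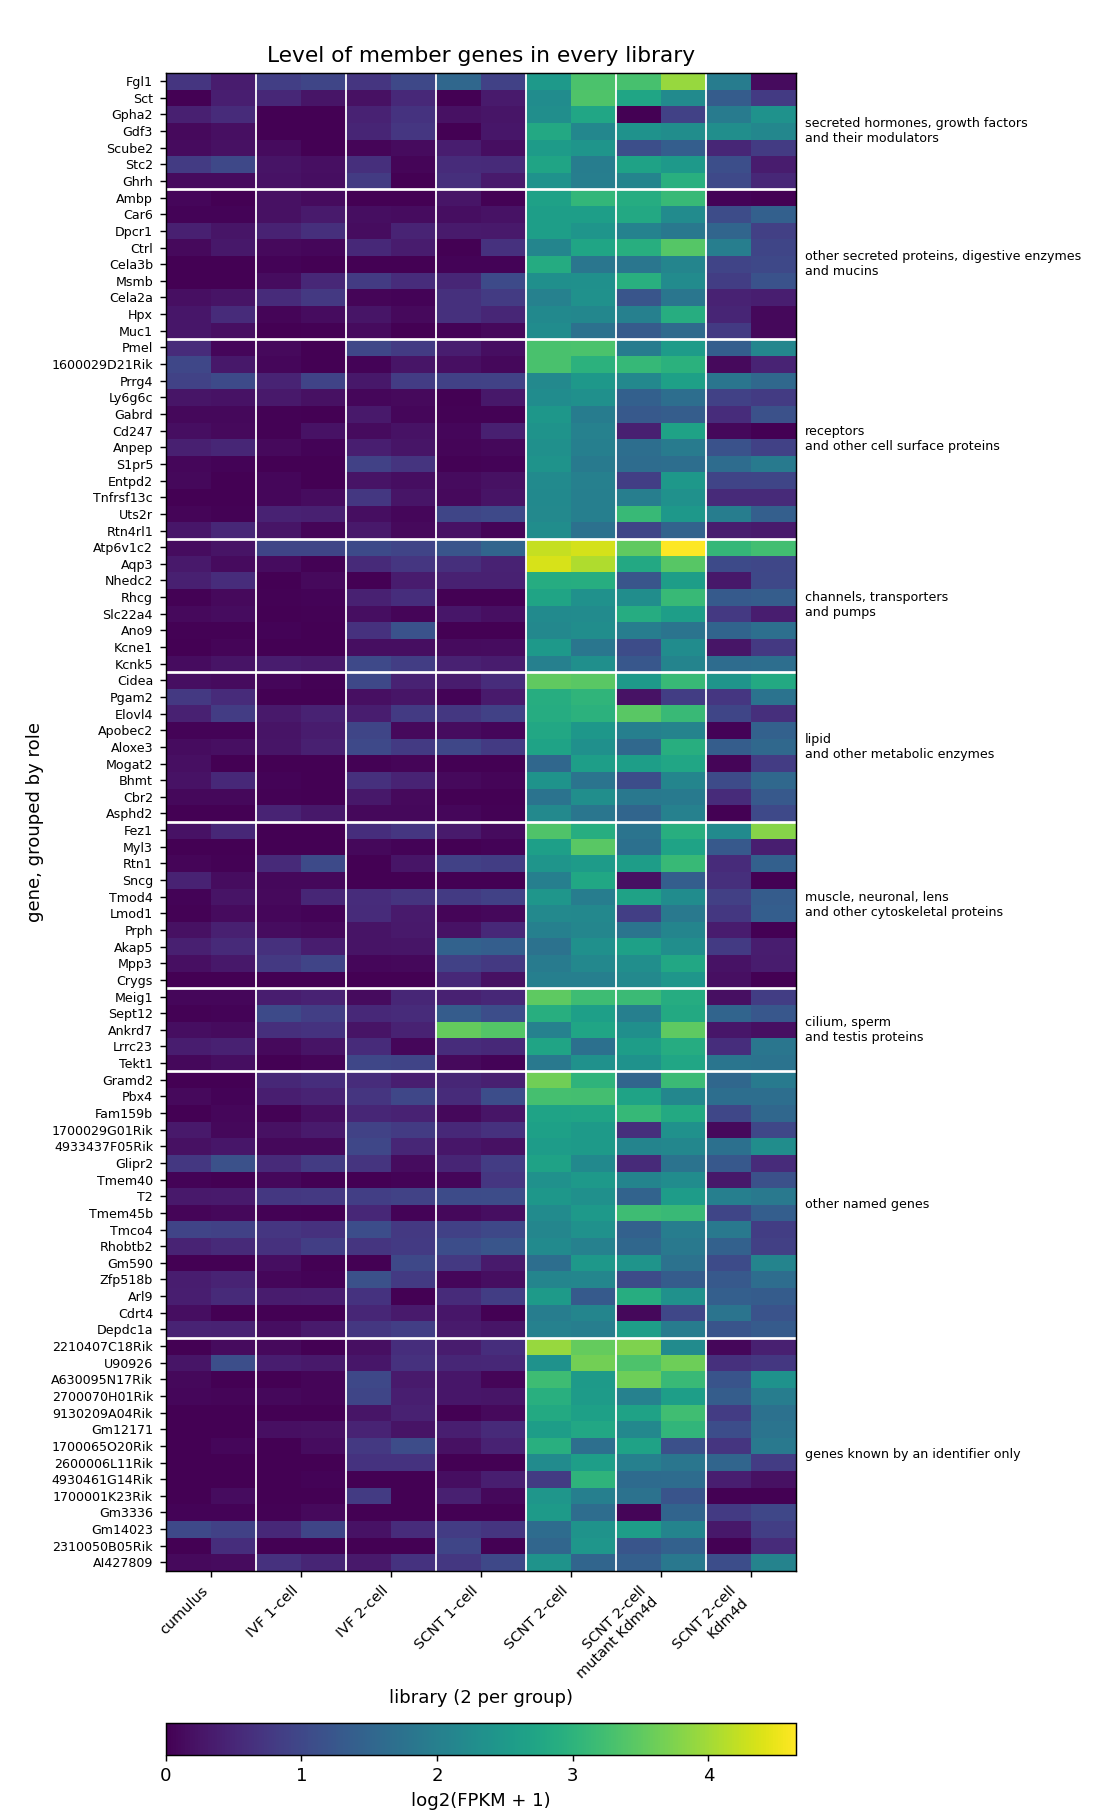
Level of the genes of the group (rows, grouped by role; a gene not reported here is left out) in each of the 14 libraries (columns, 2 per group), as log2(FPKM + 1) in colour. The SCNT 2-cell columns are bright because the rule chose them so; the mutant Kdm4d columns, which the rule did not use, are bright for most rows, and many rows are dark in the Kdm4d columns.

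The SCNT 1-cell, Kdm4d and mutant Kdm4d libraries were not used in the choice, although it held IVF embryos of the 1-cell stage under 1 FPKM. In SCNT 1-cell embryos 84 of the 91 genes had a mean under 1 FPKM, and 68 had one under 0.5. The 7 that reached 1 FPKM were Ankrd7, Akap5, Atp6v1c2, Fgl1, Sept12, Rhobtb2 and T2. Ankrd7, an ankyrin repeat gene known from the testis, stood apart with 10.7 and 9.55 FPKM, above its SCNT 2-cell values of 3.14 and 5.64 and its IVF 1-cell values of 0.542 and 0.603. Akap5, which encodes a scaffold for protein kinase A, came next with 1.77 and 1.61 FPKM.

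In mutant Kdm4d embryos most genes of the group were present, and in Kdm4d embryos many were low. The mutant libraries held 80 and 88 of the 91 genes at 1 FPKM or more, and 50 and 62 at 3 FPKM or more. The Kdm4d libraries held 44 and 48 at 1 FPKM or more, and 5 and 11 at 3 FPKM or more. The IVF 2-cell libraries held 7 and 4 at 1 FPKM or more, a number that the rule limits. The median of the 91 group means was 3.96 FPKM in mutant embryos, 1.14 in Kdm4d embryos, 4.25 in SCNT 2-cell embryos and 0.338 in IVF 2-cell embryos. The rule held the IVF 2-cell median down. High values in SCNT 2-cell embryos were a condition of the choice, so the comparison of each Kdm4d group with SCNT 2-cell embryos is given by levels only. The 91 genes made up 0.0356% and 0.0449% of all FPKM in the Kdm4d libraries and 0.113% and 0.169% in the mutant libraries.

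**Figure D2:**
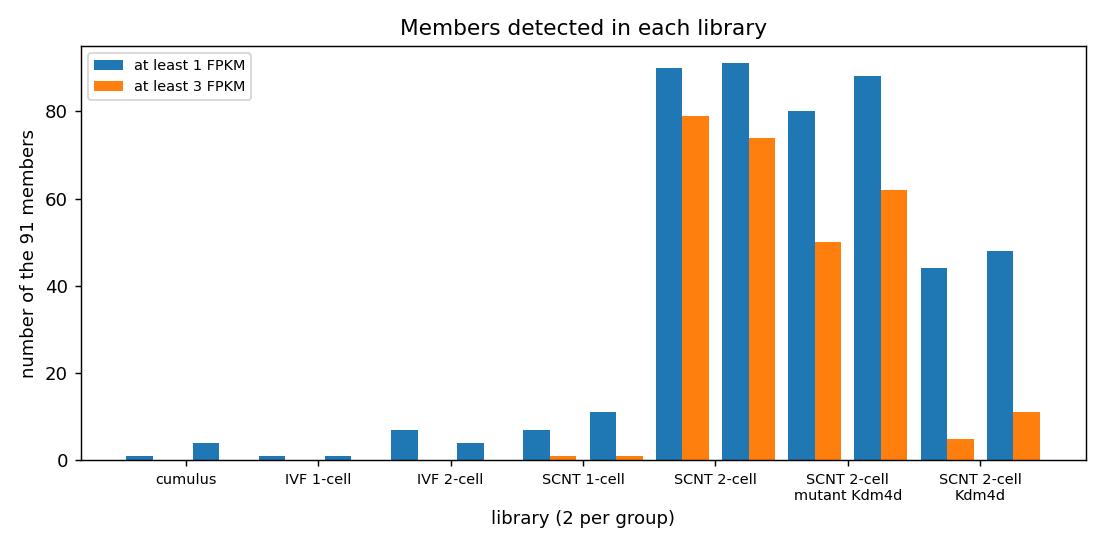
Number of the 91 genes at 1 FPKM or more and at 3 FPKM or more (bars, from 0) in each of the 14 libraries. The mutant Kdm4d libraries hold 80 and 88 genes at 1 FPKM or more and the Kdm4d libraries 44 and 48.

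The Kdm4d groups were compared with each other. Besides the form of the protein, the Kdm4d level differed, at 8879 and 2255 FPKM against 723 and 283 in mutant embryos. Effects of form and of level cannot be told apart. Of the 91 genes, 62 were lower in Kdm4d than in mutant embryos (68.1%), 2 were higher (2.2%) and 27 were not called, by limma on log2(FPKM + 1) with all 7 groups in 1 model and Benjamini-Hochberg adjustment over all genes. Over all 13455 genes tested, 22.5% were lower and 21.4% higher. The median log2 difference was -1.05 over the 91 genes and -0.09 over all genes tested. Both mutant libraries lay above both Kdm4d libraries in 66 of the 91, against 33.8% of all genes tested, and both Kdm4d libraries lay above both mutant libraries in 2, against 27.7%. All 91 passed the filter of at least 1 FPKM in at least 2 libraries, which the choice favoured but did not ensure. Of these, 84 would have passed without the SCNT 2-cell libraries. Over these 84, a count chosen after seeing the data, 60 were lower, 2 were higher and 22 were not called.

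Genes of a wider choice moved to a like extent. Among the 397 tested genes with at least 3 FPKM in SCNT 2-cell and under 1 FPKM in IVF 2-cell embryos, whatever their level in cumulus cells and IVF 1-cell embryos, 66.5% were lower in Kdm4d than in mutant embryos and 1.51% were higher. These 397 include the 91. Among the 7266 tested genes with at least 3 FPKM in SCNT 2-cell embryos, whatever their level in IVF embryos, 24.5% were lower and 28.7% higher.

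These calls rest on 1 spread per gene shared by all 7 groups, while the Kdm4d groups varied most between replicates. With group weights, 34 of the 91 were lower and 1 higher, against 796 and 1444 of all genes. Among genes described below with a call, Sct, Ctrl, Cela3b, Atp6v1c2, Nhedc2, Apobec2, Myl3, Sept12, Tekt1, Pbx4, A630095N17Rik and Cdrt4 were then not called. With a pseudocount of 0.1, Sct, Tekt1, Pbx4 and Cdrt4 were not called, and without the filter Atp6v1c2 was not. In a fit to the 4 Kdm4d and mutant libraries alone, 0 genes were called by limma (smallest adjusted p = 0.062); at an unadjusted p under 0.05, 50 of the 91 were lower and 1 higher, against 1830 and 2063 of all genes. With libraries scaled to equal sums, 3913 of all genes were lower and 2116 higher, against 3024 and 2875 as deposited, and 64 of the 91 were lower and 2 higher. Without the second mutant library 54 were lower and 5 higher.

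**Figure D3:**
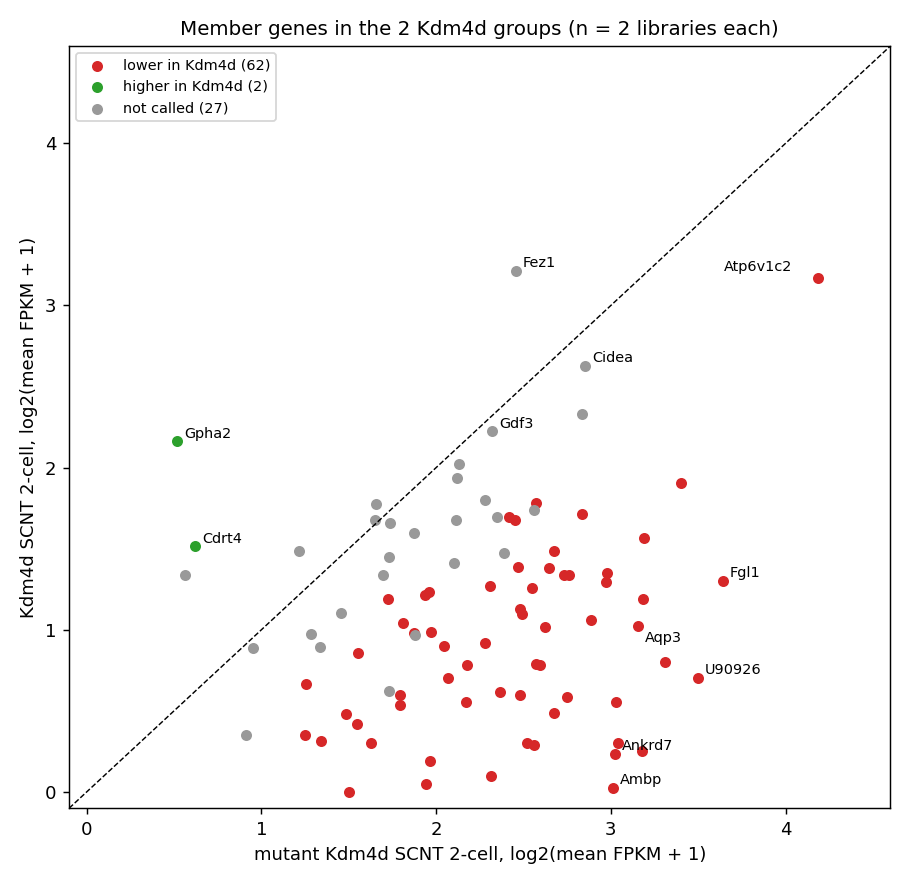
Mean level of each of the 91 genes in mutant Kdm4d (horizontal) and Kdm4d (vertical) embryos, as log2(mean FPKM + 1) of 2 libraries each, coloured by the limma call; the dashed line marks equal levels. The 62 genes called lower in Kdm4d embryos lie below the line, and Gpha2 and Cdrt4, called higher, lie above it.

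Calls are given below by role. Roles were assigned after the levels were seen, and each holds few genes. Each count stands beside 68.1% lower in the whole group and 22.5% lower among all genes tested. Differences between roles were not tested. Among hormones, growth factors and their modulators, 5 of 7 genes were lower in Kdm4d than in mutant embryos and 1 was higher. Fgl1 (chromosome 8, 42276788 to 42300510; loci are on mm9), which encodes a fibrinogen-like protein secreted by the liver, had 2.84 and 0.0966 FPKM in Kdm4d and 8.81 and 14.1 in mutant embryos. The groups did not overlap, although the Kdm4d libraries differed widely from each other (log2 difference -2.57, SE 0.49, adjusted p = 0.0015). Sct, the gene of the gut hormone secretin (chromosome 7, 148464237 to 148465030), had 1.54 and 0.727 FPKM in Kdm4d and 5.62 and 3.65 in mutant embryos. The groups did not overlap (log2 difference -1.40, SE 0.34, adjusted p = 0.0059), but without the second Kdm4d library the adjusted p was 0.059. Stc2, which encodes the secreted glycoprotein stanniocalcin 2, had 1.16 and 0.279 against 5.38 and 4.68 FPKM. Ghrh, the gene of growth hormone releasing hormone, had 1.04 and 0.423 against 3.29 and 6.59 FPKM. Both were lower in each Kdm4d library than in each mutant library (adjusted p = 0.00044 and 0.00098).

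Gpha2 went the other way. It encodes the alpha subunit of the glycoprotein hormone thyrostimulin (chromosome 19, 6226401 to 6227768). It had 2.82 and 4.14 FPKM in Kdm4d embryos, was listed at 0 in one mutant library and had 0.864 FPKM in the other, and had 3.93 and 5.70 in SCNT 2-cell embryos. Both Kdm4d libraries lay above both mutant libraries (log2 difference 1.70, SE 0.27, adjusted p = 0.00046). Gdf3, a growth factor of the TGF-beta family used by pluripotent cells, had 3.88 and 3.46 FPKM in Kdm4d and 4.16 and 3.83 in mutant embryos. Its groups overlapped and it was not called (log2 difference -0.10, SE 0.21, adjusted p = 0.74).

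All 9 genes among the other secreted proteins, digestive enzymes and mucins were lower in Kdm4d than in mutant embryos in the 7-group fit. Their median log2 difference was -1.27, and 68.1% of the 91 genes were lower. Ambp (chromosome 4, 62804313 to 62815176) encodes a precursor that the liver cuts into a plasma lipocalin and a protease inhibitor. It had 0.0351 FPKM in one Kdm4d library, was listed at 0 in the other, and had 6.33 and 7.80 FPKM in mutant embryos. This was the largest difference among the 91 genes (log2 difference -2.98, SE 0.17, adjusted p = 2.4e-06), and both IVF 2-cell libraries listed the gene at 0. Hpx, the gene of the haem carrier hemopexin, had 0.397 and 0.0694 FPKM in Kdm4d and 3.08 and 6.41 in mutant embryos. Ctrl, a chymotrypsin-like protease of the pancreas, had 2.96 and 0.970 against 6.50 and 9.72 FPKM, and Car6, a carbonic anhydrase secreted in saliva, had 1.12 and 1.67 against 5.97 and 3.71. None of these 3 had overlapping groups (adjusted p = 7e-05, 0.002 and 0.00036). Muc1, a mucin of epithelial surfaces, had 0.730 and 0.0654 against 1.53 and 2.06 FPKM (adjusted p = 0.0031). The elastase genes Cela2a and Cela3b were also lower, with the uncertainty given above (adjusted p = 0.00093 and 0.0085).

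Of 13 receptors and other cell surface proteins, 8 were lower, 0 were higher and 5 were not called. Cd247 and Rtn4rl1, counted among the 8, passed the filter only through the SCNT 2-cell libraries that chose them. Nothing is read from their calls. The gene 1600029D21Rik (chromosome 9, 50302630 to 50313744), now named Plet1, encodes a surface protein known from the placenta. It had 0.0881 and 0.378 FPKM in Kdm4d and 7.69 and 6.78 in mutant embryos, and 8.96 and 6.90 in SCNT 2-cell embryos. The Kdm4d and mutant groups stood far apart (log2 difference -2.75, SE 0.23, adjusted p = 1.6e-05). Tnfrsf13c, the receptor of B cells for the survival factor BAFF, had 0.468 and 0.468 against 2.94 and 4.06 FPKM and was lower too (log2 difference -1.61, SE 0.18, adjusted p = 7.2e-05). Pmel, a melanosome protein, had 1.60 and 3.36 against 2.88 and 4.84 FPKM. Its groups overlapped and it was not called (adjusted p = 0.15), but it was called lower without the second Kdm4d library (adjusted p = 0.034). S1pr5, a receptor for sphingosine 1-phosphate, had 2.10 and 2.75 against 2.10 and 2.21 FPKM, again with overlap (adjusted p = 0.64).

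Among channels, transporters and pumps, 6 of 8 were lower and 0 were higher. Atp6v1c2 (chromosome 12, 17291527 to 17331536), a subunit of the proton pump V-ATPase, was the most abundant of the 91, with 17.8 and 19.4 FPKM in SCNT 2-cell embryos. It lay just under the limit of 1 FPKM in IVF embryos. Its means of 0.958 FPKM in IVF 1-cell and 0.996 in IVF 2-cell embryos were the highest of the 91. It had 7.51 and 8.47 FPKM in Kdm4d and 10.4 and 23.99 in mutant embryos, without overlap (log2 difference -0.91, SE 0.29, adjusted p = 0.024). That call was lost without either Kdm4d library or without the second mutant library (adjusted p from 0.062 to 0.17). Aqp3 (chromosome 4, 41039757 to 41045216) encodes a channel for water and glycerol. It had 19.6 and 16.1 FPKM in SCNT 2-cell embryos and 1.07 and 0.994 FPKM in Kdm4d and 6.00 and 9.80 in mutant embryos. Its Kdm4d values lay close together and far below both mutant values (log2 difference -2.10, SE 0.21, adjusted p = 4.1e-05). Slc22a4, a transporter of organic cations, had 0.704 and 0.301 against 6.35 and 5.11 FPKM (log2 difference -2.17, SE 0.16, adjusted p = 8.1e-06). Nhedc2, a sodium and proton exchanger, had 0.231 and 1.02 against 1.35 and 5.03 FPKM (log2 difference -1.25, SE 0.35, adjusted p = 0.014), with an adjusted p of 0.1 without the first Kdm4d library and 0.087 without the second mutant library. Kcnk5, a potassium channel subunit, had 2.11 and 2.20 against 1.39 and 3.27 FPKM, with overlap and no call (adjusted p = 0.97).

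Of 9 lipid and other metabolic enzymes and related proteins, 5 were lower, 0 were higher and 4 were not called. Elovl4, an elongase of very long fatty acids (chromosome 9, 83672299 to 83699912), had 0.948 and 0.540 FPKM in Kdm4d and 10.02 and 7.85 in mutant embryos, without overlap (log2 difference -2.51, SE 0.21, adjusted p = 1.6e-05). Mogat2, an enzyme of fat absorption in the gut, had 0.0461 and 0.762 against 5.07 and 5.68 FPKM and was also lower (adjusted p = 0.00018). Apobec2, a protein of muscle related to cytidine deaminases, had 0.0357 and 1.70 against 3.02 and 3.25 FPKM (adjusted p = 0.013, but 0.11 without the first Kdm4d library). Cidea, a lipid droplet protein of brown fat, had 4.33 and 6.04 FPKM in Kdm4d and 4.68 and 7.74 in mutant embryos. The groups overlapped and it was not called (log2 difference -0.20, SE 0.25, adjusted p = 0.53). Pgam2, the muscle form of phosphoglycerate mutase, had 6.40 and 7.18 FPKM in SCNT 2-cell embryos but 0.669 and 2.39 FPKM in Kdm4d and 0.170 and 0.789 in mutant embryos. Here both groups were low and overlapped (log2 difference 0.72, SE 0.29, adjusted p = 0.06). The gene passed the filter only through the SCNT 2-cell libraries that chose it, so nothing is read from the settings in which it was called.

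Of 10 genes of muscle, neuronal, lens and other cytoskeletal proteins, 7 were lower and 0 were higher. Myl3, a myosin light chain of heart and slow muscle (chromosome 9, 110666185 to 110672298), had 5.14 and 10.03 FPKM in SCNT 2-cell embryos and 1.46 and 0.319 FPKM in Kdm4d and 2.29 and 5.43 in mutant embryos. The latter groups did not overlap (log2 difference -1.35, SE 0.35, adjusted p = 0.0085), but the adjusted p was 0.095 without the second Kdm4d library and 0.061 without the second mutant library. Crygs, a crystallin of the lens (chromosome 16, 22805276 to 22811483), was listed at 0 in both libraries of cumulus cells, IVF 1-cell and IVF 2-cell embryos. It had 0.143 FPKM in one Kdm4d library, was listed at 0 in the other, and had 3.54 and 4.39 in mutant embryos (log2 difference -2.21, SE 0.15, adjusted p = 5.4e-06). Prph, the gene of the neuronal filament protein peripherin, had 0.284 and 0 against 2.46 and 3.33 FPKM (log2 difference -1.77, SE 0.17, adjusted p = 3.3e-05). Fez1, a protein of axon growth (chromosome 9, 36651244 to 36686225), had 3.68 and 12.8 FPKM in Kdm4d and 2.46 and 6.50 in mutant embryos, with wide and overlapping groups (log2 difference 0.66, SE 0.44, adjusted p = 0.25). Without the first Kdm4d library it was called higher in Kdm4d embryos (adjusted p = 0.011).

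All 5 genes known from cilia, sperm or testis were lower in Kdm4d than in mutant embryos in the 7-group fit, against 68.1% of the 91. The summed sperm and testis markers, given below, overlapped between these groups. Meig1, needed in mice for the shaping of sperm (chromosome 2, 3326315 to 3339920), had 0.144 and 0.792 FPKM in Kdm4d and 7.98 and 6.32 in mutant embryos, without overlap (log2 difference -2.50, SE 0.23, adjusted p = 2.1e-05). Ankrd7 (chromosome 6, 18816318 to 18829584) had 0.220 and 0.135 against 3.96 and 10.3 FPKM (log2 difference -2.67, SE 0.32, adjusted p = 0.00011). Sept12, a septin of the sperm tail, had 1.82 and 1.41 against 3.03 and 6.05 FPKM (log2 difference -1.03, SE 0.24, adjusted p = 0.005). Tekt1, a tektin of cilia and flagella, had 2.50 and 2.39 against 4.13 and 5.75 FPKM (log2 difference -0.77, SE 0.19, adjusted p = 0.0063). In each of these 4 the lowest mutant value lay above the highest Kdm4d value.

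Among 16 other named genes, 7 were lower and 1 was higher. Pbx4, a homeobox gene, had 2.18 and 2.21 FPKM in Kdm4d and 5.46 and 3.46 in mutant embryos (log2 difference -0.75, SE 0.22, adjusted p = 0.017). Its call was lost without the second Kdm4d library (adjusted p = 0.059) and without the first mutant library (adjusted p = 0.12). Tmem45b, which encodes a membrane protein, had 0.950 and 1.61 against 8.24 and 7.90 FPKM (log2 difference -2.01, SE 0.19, adjusted p = 3.2e-05), and Fam159b had 0.981 and 1.92 against 7.58 and 6.08 FPKM (adjusted p = 7.5e-05). Cdrt4 had 2.43 and 1.28 against 0.0765 and 0.996 FPKM and was the 1 gene of these 16 called higher (log2 difference 0.93, SE 0.26, adjusted p = 0.013). That call was lost without the first Kdm4d library (adjusted p = 0.1) or the first mutant library (adjusted p = 0.12). Gramd2 had 1.93 and 2.74 against 1.84 and 7.94 FPKM, with overlap (adjusted p = 0.24), and was called lower without the first mutant library (adjusted p = 0.0017).

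Of 14 genes grouped as known by an identifier, 10 were lower and 0 were higher. Among the 14, 2600006L11Rik, 2310050B05Rik and AI427809 are now named Scarletltr, Atcayos and Mexis. U90926 (chromosome 5, 92638921 to 92644434) had 0.567 and 0.693 FPKM in Kdm4d and 9.22 and 11.3 in mutant embryos, without overlap (log2 difference -2.79, SE 0.36, adjusted p = 0.00016). The gene 2210407C18Rik (chromosome 11, 58421708 to 58426994) had 0.0535 and 0.328 against 12.4 and 3.72 FPKM (log2 difference -2.75, SE 0.37, adjusted p = 0.00019). A630095N17Rik had 1.30 and 4.18 against 11.3 and 7.81 FPKM, 9130209A04Rik had 0.765 and 2.34 against 5.38 and 8.37 and Gm12171 had 1.15 and 2.46 against 3.47 and 7.33. Each of these 3 was lower without overlap (adjusted p = 0.0042, 5e-04 and 0.0058). The gene 2700070H01Rik had 1.57 and 2.90 against 3.10 and 5.11 FPKM and was not called (adjusted p = 0.059), although its groups did not overlap; it was called lower without the second Kdm4d library (adjusted p = 0.028) or the first mutant library (adjusted p = 0.023), and with equal sums (adjusted p = 0.032).

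**Figure D4:**
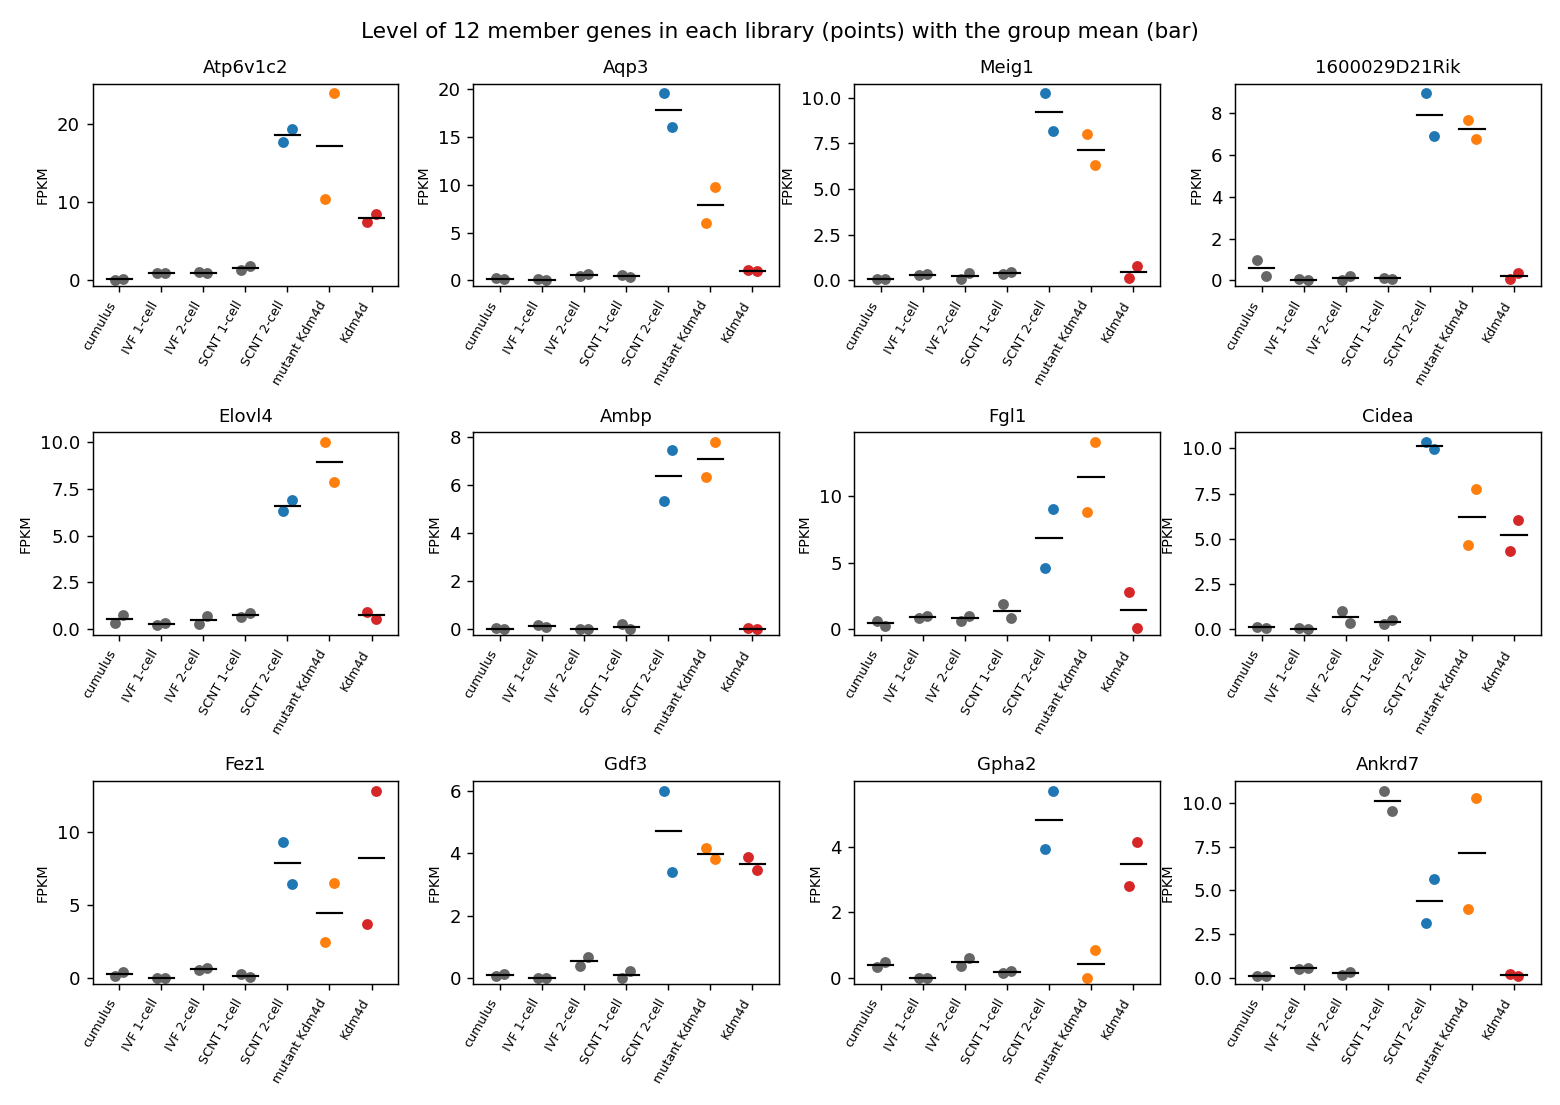
Level in FPKM of 12 genes of the group in each of the 14 libraries (points, 2 per group) with the group mean (bar). Meig1, 1600029D21Rik, Elovl4, Ambp and Ankrd7 are under 1 FPKM in both Kdm4d libraries and at 3.96 FPKM or more in both mutant libraries, Cidea, Fez1 and Gdf3 overlap between these groups, and Gpha2 is higher in the Kdm4d libraries.

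In Kdm4d embryos 7 genes of the group had a mean of 3 FPKM or more, among them Fez1, Atp6v1c2, Cidea, Gdf3, Gpha2 and 4933437F05Rik. Of these named genes, each but Gpha2 also had a mutant mean of at least 3 FPKM. At the other end, 41 genes had a Kdm4d mean under 1 FPKM, and 39 of these had a mutant mean of at least 1. The mutant mean was at least 3 times the Kdm4d mean in 48 genes. Fez1 was the 1 gene whose Kdm4d mean was not below its SCNT 2-cell mean, whereas the mutant mean reached the SCNT 2-cell mean in 31 genes. The Kdm4d mean was below the IVF 2-cell mean in 6 genes, which were Ankrd7, Prph, Cd247, 2210407C18Rik, 1700029G01Rik and 1700001K23Rik, and the mutant mean was below it in Gpha2 alone.

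The Kdm4d groups were also compared with SCNT 1-cell embryos, which are a stage earlier and were likewise not used in the choice. These comparisons share the SCNT 1-cell libraries and are set side by side. The rule did ask for under 1 FPKM in IVF 1-cell embryos and at least 3 FPKM in SCNT 2-cell embryos. That choice favours genes that rise between these stages, and its part in the counts was not tested. In mutant embryos 81 of the 91 genes (89%) were higher than in SCNT 1-cell embryos and 0 were lower by limma, also at an unadjusted p under 0.05, against 33.3% higher and 26.5% lower among all genes tested. In Kdm4d embryos 43 (47.3%) were higher and 3 (3.3%) lower, against 34.1% and 33.5% of all genes tested. Among the 397 genes of the wider choice, 70% were higher and 7.56% lower in mutant embryos, and 30.5% were higher and 23.2% lower in Kdm4d embryos. Among the 7266 genes with at least 3 FPKM in SCNT 2-cell embryos these shares were 41.3% and 28.4% in mutant and 43.6% and 33.9% in Kdm4d embryos. Over the 84 genes that passed the filter without the SCNT 2-cell libraries, 78 were higher and 0 lower in mutant embryos, and 41 were higher and 3 lower in Kdm4d embryos. The median log2 difference over the 91 genes was 1.80 in mutant and 0.69 in Kdm4d embryos, with 0.09 and -0.02 over all genes tested. For mutant embryos the split over all genes moved with the scaling, from 4475 higher and 3571 lower as deposited to 3600 and 4331 after quantile normalization and 5138 and 2577 with equal sums, where 74 and 83 of the 91 were higher.

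Of the 62 genes lower in Kdm4d than in mutant embryos, 22 were higher in Kdm4d than in SCNT 1-cell embryos, 37 were not called and 3 were lower. Those 3 were Ankrd7, Akap5 and Mpp3, a scaffold protein of the membrane. The 62 were picked for low values in the same Kdm4d libraries, which favours no call or a lower call here. They include Cd247 and Rtn4rl1. The like split was not counted over all genes lower in Kdm4d than in mutant embryos, so nothing is read from these counts. Ankrd7 was far lower in Kdm4d than in SCNT 1-cell embryos (log2 difference -3.24, SE 0.32, adjusted p = 3.1e-06). Its values in mutant embryos overlapped its SCNT 1-cell values and it was not called there (log2 difference -0.57, SE 0.32, adjusted p = 0.15), although it was called lower without the second mutant library (adjusted p = 0.0022). Akap5 had 0.737 and 0.294 FPKM in Kdm4d and 5.26 and 3.92 in mutant embryos. Against SCNT 1-cell embryos it was lower in Kdm4d (log2 difference -0.84, SE 0.22, adjusted p = 0.005, with an adjusted p of 0.052 without the second Kdm4d library) and higher in mutant embryos (log2 difference 1.04, SE 0.22, adjusted p = 0.0016).

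Aqp3 had 0.538 and 0.359 FPKM in SCNT 1-cell embryos. It was higher in mutant embryos (log2 difference 2.59, SE 0.21, adjusted p = 1.2e-06) and was not called in Kdm4d embryos (log2 difference 0.49, SE 0.21, adjusted p = 0.06), where it was called with a pseudocount of 0.1 (adjusted p = 0.037). Gdf3 was higher in mutant embryos (log2 difference 2.17, SE 0.21, adjusted p = 4.2e-06) and in Kdm4d embryos (log2 difference 2.08, SE 0.21, adjusted p = 3.8e-06). It was listed at 0 in one SCNT 1-cell library and had 0.220 FPKM in the other.

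Few markers on the lists drawn up for cell types belonged to the group. No list was made for pancreas, lens, salivary gland or brown fat, from which genes described above are known. The liver and gut list did not include Ambp or Hpx. Of 12 lists of markers, 4 held 1 gene of the group each: Myl3 among 28 muscle markers, Aqp3 among 30 trophectoderm markers, Gdf3 among 25 markers of the inner cell mass and primitive endoderm, and Muc1 among 14 oviduct epithelial markers. The lists for neurons (17 measured), liver and gut (15), sperm and testis (20), stratified epithelium (20), immune cells (21), endothelium (12), red blood cells (8) and cumulus and granulosa cells (24) held 0. In the muscle list 9 of 28 markers had a mean of at least 1 FPKM in SCNT 2-cell embryos, while Tnnt3, Myl1 and Myod1 were listed at 0 in every SCNT 2-cell library, those with Kdm4d or its mutant included. The summed muscle markers stood at 74.8 and 65.6 FPKM in SCNT 2-cell, 52.6 and 55.5 in mutant and 33.1 and 20.9 in Kdm4d embryos. Trophectoderm markers, of which 18 of 30 reached 1 FPKM, summed to 262 and 256 in SCNT 2-cell, 269 and 329 in mutant and 171 and 164 in Kdm4d embryos.

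Lists for some other cell types also differed between the Kdm4d groups. Red blood cell markers summed to 13.9 and 19.6 FPKM in SCNT 2-cell, 22.5 and 19.5 in mutant, 5.07 and 3.83 in Kdm4d and 2.34 and 2.95 in IVF 2-cell embryos. The 1 gene of the 8 that reached 1 FPKM in SCNT 2-cell embryos was the globin gene Hba-a2 with 16.1 FPKM. Immune cell markers, 6 of 21 at 1 FPKM or more in SCNT 2-cell embryos, summed to 109.8 and 88.2 in mutant and 51.2 and 52.5 in Kdm4d embryos. They also summed to 97.6 and 89.95 FPKM in IVF 1-cell embryos, where Ms4a1 alone had a mean of 75.1, and to 26.5 and 25.5 in IVF 2-cell embryos. In these lists, as in those for muscle and trophectoderm, both mutant libraries lay above both Kdm4d libraries, as most genes of the group did. After the data were seen, each list was also summed without the gene that differed most between these groups. The order held without Tnnc2 for muscle, Id2 for trophectoderm and H2-Aa for immune cells, while the red blood cell sums overlapped without Hba-a2.

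The reverse order, Kdm4d above mutant in both libraries, held for markers of the oviduct epithelium (178 and 234 against 103 and 136 FPKM; 6 of 14 at 1 FPKM or more in SCNT 2-cell embryos), cumulus and granulosa cells (136 and 193 against 112 and 91.8; 10 of 24), neurons (89.7 and 75.3 against 71.5 and 56.2; 7 of 17), stratified epithelium (17.2 and 11.6 against 8.12 and 8.59; 1 of 20, with Krt1, Krt5, Ivl, Lor and Dsg3 listed at 0) and inner cell mass and primitive endoderm (394 and 545 against 249 and 267; 15 of 25). The sums overlapped for endothelial markers (6.91 and 3.61 against 4.82 and 10.03; 1 of 12), sperm and testis markers (66.8 and 57.9 against 69.9 and 60.6; 4 of 20, with Smcp and Tssk2 listed at 0) and liver and gut markers (24.5 and 30.6 against 31.1 and 27.7; 4 of 15, with Apoc3, Fabp1, Cdx1 and Tff3 listed at 0). Several of these orders came from 1 gene. Gja1, a gap junction gene, had 95 and 158 FPKM in Kdm4d and 46.9 and 43.2 in mutant embryos, and the other cumulus and granulosa markers summed to 40.8 and 34.8 FPKM in Kdm4d and 64.8 and 48.6 in mutant embryos, with mutant above. Stmn3 had 33.6 and 45.5 FPKM in Kdm4d and 10.2 and 17.3 in mutant embryos, and the other neuron markers summed to 56 and 29.8 FPKM in Kdm4d and 61.4 and 38.9 in mutant embryos and overlapped. The stratified epithelium sums overlapped without Sfn, and the liver and gut sums without Muc13 were higher in both mutant libraries. Kdm4d stayed above mutant without Tubb4b in the oviduct list and without Dppa5a in the inner cell mass list. The sums that were left leaned on few genes. Epcam, with a mean of 92.8 FPKM in Kdm4d and 52.4 in mutant embryos, was most of the remaining oviduct sum. In the inner cell mass list Dppa4 had means of 125 against 45.7 FPKM and Fgf4 had 52.6 against 22.7. The orders without these further genes were not tested. IVF embryos also held some of these transcripts. The oviduct list summed to 155 and 142 FPKM in IVF 2-cell embryos, and the neuron list to 87.6 and 78.6 in IVF 1-cell embryos. The part of the listed cell types in the levels of the 91 genes was not tested. In pooled embryos, more cells with a transcript and more transcript per cell cannot be told apart.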

How the data were processed

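Per the labels' protocols, cDNA of lysed cells or embryos was made with a SMARTer Ultra Low kit, sheared by sonication and sequenced as single reads of 50 bases. The submitters' processing notes name Novoalign, Cufflinks 2.0.2 and mm9. The authors deposited FPKM per gene in 1 table of 23697 rows. Gene annotation, strand use and the handling of multiply mapping reads are not stated. FPKM hold no absolute depth, so relative depth was estimated from the most frequent ratio of low values between libraries.

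Rows of 1 symbol were summed. For tests, 802 short RNA rows were dropped, and 13455 of 22495 symbols had at least 1 FPKM in at least 2 libraries. Log2 differences are on log2(FPKM + 1), which understates changes near 0. limma 3.58.1 in R 4.3.3 fitted 1 mean per group, its prior variance following the mean level (7 residual and 4.71 prior degrees of freedom), with Benjamini-Hochberg adjustment at 0.05. The fit was tested on simulated data with 1 spread per gene for all groups. It recovered 57 to 65% of log2 changes of 1 and 90 to 97% of changes of 2, with 9 to 13 false calls per comparison. The larger spread of the Kdm4d groups was not simulated. Promoters came from RefSeq (GRCm38.p6). Shared 50-base stretches were sought on both strands of GENCODE transcripts.

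The 91 genes and the marker lists were chosen with earlier results of these data known, and the roles after the levels were seen. Genes named were the 25 highest in SCNT 2-cell embryos, the called genes with the largest rises and falls between the Kdm4d groups, the 4 highest in SCNT 1-cell embryos, those at the limit of the rule and those in marker lists. Others were added after their values were seen, to illustrate a role. Counts over 84 genes, and marker sums without a list's leading gene, were added after seeing the data. Values of some genes are not reported here. Alternatives were another pseudocount, filter, scaling, fit or weighting, a replicate block, leaving out each library, and other limits of the rule.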

Additional observations from a re-analysis of the deposited data

How the results depend on the processing

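No called difference of a gene named by rule changed direction under any alternative; log2 differences called neither before nor after did. Leaving out each library in turn, the difference between the Kdm4d groups ran from -0.123 to 1.44 for Fez1 (negative without the second Kdm4d library), and from -0.513 to 0.109 for Cidea and -1.43 to 0.217 for Gramd2 (both positive without the second mutant library). For Kdm4d against SCNT 1-cell embryos it ran from -0.279 to 0.369 for Meig1, -0.0222 to 0.318 for 1600029D21Rik, -0.128 to 0.588 for Nhedc2, -0.0679 to 1.32 for Apobec2, -0.203 to 0.136 for Elovl4 and -1.09 to 0.718 for Fgl1, each turned by leaving out the second Kdm4d library. Leaving out the first SCNT 1-cell library also turned Meig1 (-0.00486) and Fgl1 (0.133), and leaving out the second turned Elovl4 (0.0462). In that comparison quantile normalization gave Meig1 -0.111, U90926 -0.0118 and Sept12 -0.109, a pseudocount of 0.1 gave Meig1 -0.0609, and equal sums gave Elovl4 0.00619. For mutant against SCNT 1-cell embryos it ran from -0.236 to 0.663 for Gpha2 and -0.0371 to 0.853 for Cdrt4 (both negative without the second mutant library) and from -1.16 to 0.0242 for Ankrd7 (positive without the first), and quantile normalization gave Gpha2 -0.0407. For Kdm4d against mutant embryos, a pseudocount of 0.1 gave 1 gene of the group higher and 52 lower, with a median log2 difference of -1.71. The fit to the compared groups gave 0 higher and 0 lower, both in the group and among all genes. Group weights gave 1 higher and 34 lower, and 1444 and 796 among all genes. Leaving out each library in turn gave 1 to 5 higher, 54 to 65 lower and medians of -1.20 to -0.87, and 2230 to 3294 higher and 2064 to 3282 lower among all genes. For Kdm4d against SCNT 1-cell embryos, the median was 1.33 with a pseudocount of 0.1 and 0.45 after quantile normalization (0.445 unrounded), which gave 5 lower; leaving out a library gave medians of 0.625 to 0.795. For mutant against SCNT 1-cell embryos, the median was 3.33 with a pseudocount of 0.1, 1.51 after quantile normalization and 1.93 with equal sums; leaving out a library gave 76 to 86 higher, 0 to 1 lower and medians of 1.70 to 1.91. Equal sums moved the median of all genes to -0.22, 0.01 and 0.27 in the 3 comparisons, and quantile normalization to -0.04, -0.14 and -0.05. Where a fit left 1 library in a group, that library was assumed to vary like the other groups.

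The rule gave 179 genes at a minimum of 2 FPKM, 26 at 5 FPKM, 49 with the other groups under 0.5 FPKM and 48 when met in every library.

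With the replicate number as a block, 61 genes of the group were lower and 3 higher in Kdm4d than in mutant embryos, against 2902 and 2836 of all genes. Against SCNT 1-cell embryos 41 were higher in Kdm4d and 80 in mutant embryos, against 4546 and 4429 of all genes. Pgam2, which passed the filter only through the SCNT 2-cell libraries, was the added higher call under the block (adjusted p = 0.041). The numbers are not shown to pair libraries: no label says so, and the differences between replicates 1 and 2 correlated across genes by 0.191 between the Kdm4d groups and by 0.008 and -0.017 with SCNT 1-cell embryos. With 2 libraries a group and shallower Kdm4d libraries, differences at low levels were not detectable reliably, and the causes of the changes between settings were not tested.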
